A study of Mus musculus with 6 samples.

Results

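miR-221 and miR-222 are a pair of microRNAs made from neighbouring hairpins on the mouse X chromosome. They were taken as all rows of the deposited miRNA table whose ID begins with miR-221 or miR-222, which gave 4 of 1300 rows: the 3p and the 5p arm of each hairpin. Small RNA was sequenced from whole ovaries of female C57BL/6J mice in 6 libraries. Of these, 3 came from mice at normal pressure in Lanzhou, at 83.56 kPa and an altitude of 1588 m in the design text (1500 m in the titles). The other 3 came from mice in a hypobaric chamber at 43.12 kPa, which simulated 6500 m (5000 m in the sample descriptions), with breaks of 0.5 h every 2 days for feeding. The oxygen pressure was 17.8 and 8.1 kPa. In the labels, the light phase was 12 h for every library. Nights lasted 12 h for every hypobaric library, and 12, 13 and 14 h for normal-pressure libraries 1, 2 and 3. The mice were 8 weeks old in the design text and 6 to 8 weeks in the descriptions. They were kept under these conditions for 15 days by the design text, and for 15, 16 or 17 days by the descriptions of libraries 1, 2 and 3. Mice of both groups received levonorgestrel and ethinylestradiol by gavage to synchronise them, with doses stated for the hypobaric mice alone (0.1 and 0.02 mg/kg). There were 15 mice in each group; how many went into a library is not in the labels, so the spread between libraries may be technical. The comparison asks whether ovarian miRNA levels differ under low-pressure hypoxia.

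A miRNA guides silencing proteins to messenger RNAs that pair with its seed, bases 2 to 8 of the mature strand. The 3p strands of miR-221 and miR-222 are the guide strands, and they are best known for lowering the cyclin-dependent kinase inhibitors p27 and p57, and KIT, the receptor for KIT ligand. In human endothelial cells their repression of KIT restrains migration and tube formation, and in vascular smooth muscle they favour proliferation. In the mouse ovary, KIT on oocytes receives KIT ligand from granulosa cells, and p27 restrains the activation of resting follicles. No messenger RNA was analysed here.

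Both guide strands are 23 bases long. They are shown with the opposite arm of miR-221 because the shared seed is what makes the guides one family. Capitals mark the seed, and the sequences are those of RefSeq on GRCm38.p6, minus strand.
miR-221-3p: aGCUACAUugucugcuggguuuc
miR-222-3p: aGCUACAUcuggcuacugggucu
miR-221-5p: aCCUGGCAuacaauguagauuucugu
They lie at chrX:19146307-19146329, chrX:19146901-19146923 and chrX:19146344-19146369. RefSeq gave a mature sequence for 3 of the 4 members, and miR-222-5p is named only. Aligned at their first base, the guide strands are identical over bases 1 to 8 and at 11 of 23 positions in all. Of 1679 mature miRNAs in the RefSeq table, 3 carry this seed. The third is miR-1928 of chromosome 1, which has no row in the deposited miRNA table. The seed of miR-221-5p belongs to that strand alone.

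The hairpins show how the arms sit in each precursor, with the mature strands above in capitals.
Mir221: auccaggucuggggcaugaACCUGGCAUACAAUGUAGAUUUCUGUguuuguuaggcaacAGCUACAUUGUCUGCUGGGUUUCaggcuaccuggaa
Mir222: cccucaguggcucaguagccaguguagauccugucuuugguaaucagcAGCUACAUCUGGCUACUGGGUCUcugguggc
Mir221 spans chrX:19146294-19146388 and Mir222 chrX:19146893-19146971, with 504 bases between them. In GENCODE M21 neither lies within another gene. The nearest one upstream is Gm14636, a noncoding transcript on the same strand, 10009 bases away. The longest stretch that the hairpins share is 9 bases, and neither guide strand shares more than 11 bases with any other of the 1005 hairpins compared. A read of the full strand can thus be told from the other.

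The bases that pair with the seed read ATGTAGC in a messenger RNA. The strand of the messenger alone was searched, in the longest annotated 3′ untranslated region of 6 genes described as targets in human cells. All 6 held at least 1 match, 8 matches in total, and an A follows 6 of the 8. The sites are shown to place the family beside the genes it is known for, with the match in capitals.
Cdkn1b (p27), chr6:134924419-134924440, plus strand: taaaagcattggATGTAGCatt
Cdkn1c (p57), chr7:143458923-143458944, minus strand: gacctttcgttcATGTAGCagg
Kit, chr5:75654980-75655001, plus strand: gatgggagatatATGTAGCaag
Kit, chr5:75656511-75656532, plus strand: gtaaatattgaaATGTAGCaat
Bbc3 (PUMA, which promotes apoptosis), chr7:16317319-16317340, plus strand: tttttctgcaccATGTAGCata
The other matches lie in Timp3, an inhibitor of matrix metalloproteinases, and in Ets1, a transcription factor of endothelial cells. Of all 20894 untranslated regions searched, 9.46% held the letters. Among regions within 10% of the same length, the share was 23.3% for Cdkn1b, 4.99% for Cdkn1c, 15.0% for Kit and 5.06% for Bbc3. A match of letters is a description and not evidence of binding. The genes were chosen from the literature on this pair.

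The totals implied by the deposited values were between 20800777 and 22559146 reads per library, and the recovered miRNA reads between 6852198 and 8701696. Values are reads per 1000000 reads of the implied total (RPM), and 3 reads are worth 0.133 to 0.144 RPM. The miRNA share of the implied total was 36.3%, 30.4% and 35.0% in normal-pressure libraries 1, 2 and 3. In the hypobaric ones it was 41.1%, 38.0% and 38.1%. Over all tested miRNAs, normal-pressure library 2 and hypobaric library 3 stood apart on the second principal component, which held 28.1% of the variance. Every library carries the same batch number. Summed markers of red cells, 7 of 7 found, ranged from 726 to 1577 RPM in the normal-pressure and from 9459 to 15085 RPM in the hypobaric libraries, and their part in any value below was not tested. The summed endothelial markers, both arms of miR-126a, were at 15323 to 20264 and 17290 to 21334 RPM. The granulosa and luteal miRNAs (9 of 9 found) summed to 2756 to 3314 and 2957 to 4171 RPM. That sum holds opposite moves: the group means were 1079 and 2420 RPM for miR-202-5p, and 1729 and 757 RPM for miR-21a-5p. It is thus no measure of granulosa or luteal content. The 4 smooth muscle markers summed to 28050 to 36777 and 30114 to 35311 RPM, the 8 leukocyte markers to 1835 to 2544 and 2408 to 2896 RPM, and the 7 epithelial markers to 2535 to 4042 and 3256 to 3760 RPM. These sums hold opposite moves as well: the log2 change was above 0 for 2 smooth muscle, 5 leukocyte and 3 epithelial markers. No marker was at 0 in all libraries.

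mmu-miR-222-3p was the most abundant of the 4 strands and ranked 96 of 1300 rows by its mean level. In normal-pressure libraries 1, 2 and 3 its level was 187, 197 and 276 RPM, and in hypobaric libraries 1, 2 and 3 it was 246, 205.1 and 259.8 RPM. The groups overlapped: normal-pressure library 3 was the highest of all 6, and both of the other normal-pressure libraries were below every hypobaric one. The means of the normal-pressure and the hypobaric group were 220.2 ± 48.7 and 237 ± 28.4 RPM (SD, n = 3 each). In RNA from whole tissue, fewer cells of a type and less RNA per cell cannot be told apart.

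mmu-miR-221-3p ranked 115, and the same libraries lay at its low and high ends. The normal-pressure libraries held 117, 106.1 and 188 RPM, the hypobaric ones 171, 136 and 184 RPM. Normal-pressure libraries 1 and 2 were again lowest and normal-pressure library 3 highest, so the groups overlapped. The means were 137 ± 44.3 and 164 ± 24.9 RPM (SD, n = 3 each). The spread lay far above counting error: the coefficient of variation at normal pressure was 32.3%, where reads of this number alone would give 1.85%.

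The 5p arms were much lower. miR-221-5p was at 6.00, 7.00 and 6.59 RPM at normal pressure, and at 3.68, 5.44 and 8.61 RPM under hypobaric hypoxia. The hypobaric libraries held both the lowest and the highest value, and the normal-pressure values lay between them. The means were 6.53 ± 0.503 and 5.91 ± 2.501 RPM (SD, n = 3 each). miR-222-5p was seen in 4, 11 and 2 reads in the normal-pressure libraries and in 3, 3 and 8 reads in the hypobaric ones. miR-222-5p did not reach the mean of 1 RPM needed for the test. In a limma fit with no filter its log2 difference was -0.037, with a 95% interval from -0.34 to 0.26 and adjusted p = 0.917, on a log2(RPM + 1) scale that understates differences at levels this low. The levels were in the order miR-222-3p, miR-221-3p, miR-221-5p, miR-222-5p in 6 of 6 libraries.

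**Figure D1:**
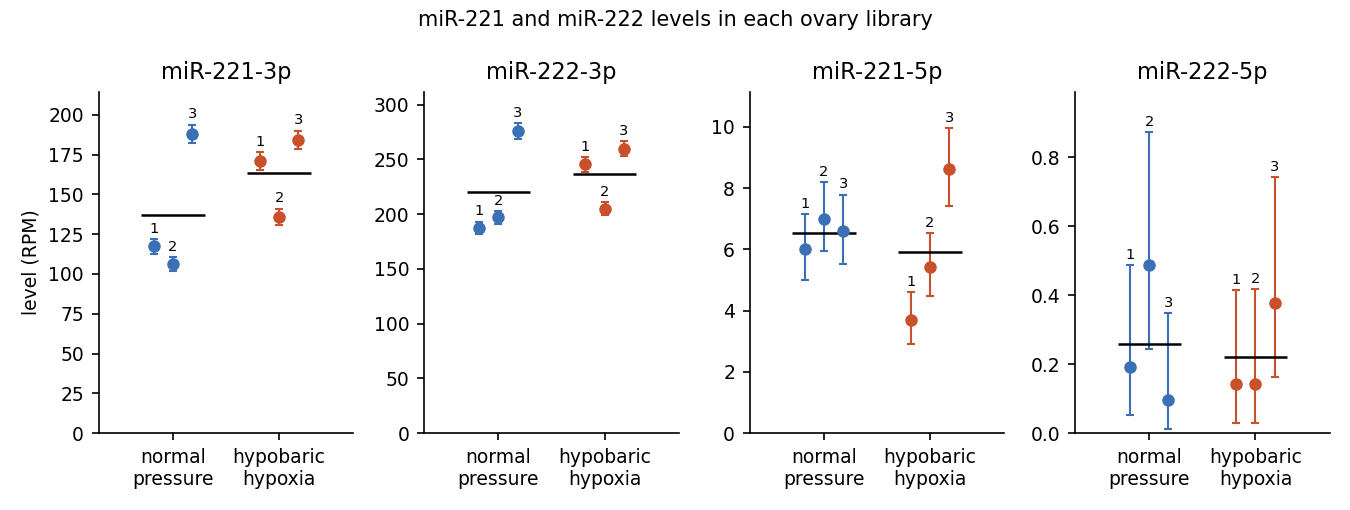
Level of each strand in RPM in every library, on axes that start at 0, with the library number beside each point. Bars are 95% Poisson intervals for counting error and black lines are group means; normal-pressure library 3 is highest for both 3p strands (188 and 276 RPM) and the groups overlap in all 4 panels.

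Under hypobaric hypoxia no member of the pair passed the test. limma was fitted on log2(RPM + 1) over the 475 miRNAs that averaged 1 RPM or more, a filter that 3 of the 4 members passed. Of the 475, 4.84% had an adjusted p under 0.05, and the groups did not overlap in 26.7%, while 0 of these 3 members were in either set. At an unadjusted p under 0.05 there were also 0, against 20.2% of all tested, and neither edgeR nor DESeq2 on the recovered reads called any. For miR-221-3p the log2 difference was 0.29 ± 0.26 (SE), with adjusted p = 0.542 in limma. As a fold this is 1.22, with a 95% interval from 0.814 to 1.83. For miR-222-3p the log2 change was 0.12 ± 0.22 (SE), adjusted p = 0.766 in limma, a 1.09-fold value with an interval from 0.772 to 1.53. miR-221-5p was at -0.18 ± 0.27 (SE), limma adjusted p = 0.720, or 0.880-fold with an interval from 0.575 to 1.346. The intervals of all 3 span no change, and the data do not show that the levels were equal.

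Over all miRNAs tested, the median of the log2 changes was 0.15. Relative to it miR-221-3p was at 0.14, miR-222-3p at -0.033 and miR-221-5p at -0.34. The sign of miR-222-3p turned negative with median-of-ratios scaling (-0.031), with totals that leave out the 10 most abundant miRNAs (-0.13) and with scaling to the total of miRNA reads (-0.087), and stayed positive with quantile scaling (0.087). In that order the log2 change of miR-221-3p was 0.14, 0.042, 0.083 and 0.16, positive throughout and smaller than with RPM. Without normal-pressure library 3, in which both guide strands were highest, the log2 change of miR-221-3p was 0.54 (limma adjusted p = 0.247) and that of miR-222-3p 0.29 (0.466). Without normal-pressure library 2, in which miR-221-3p was lowest, they were 0.13 (0.852) and 0.051 (0.926). For miR-222-3p the value was 0.014 without normal-pressure library 1, 0.22 without hypobaric library 2 and 0.049 without hypobaric library 3. Without hypobaric library 1, in which miR-221-5p was lowest, its change was 0.065, and without hypobaric library 3, in which it was highest, -0.45.

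**Figure D2:**
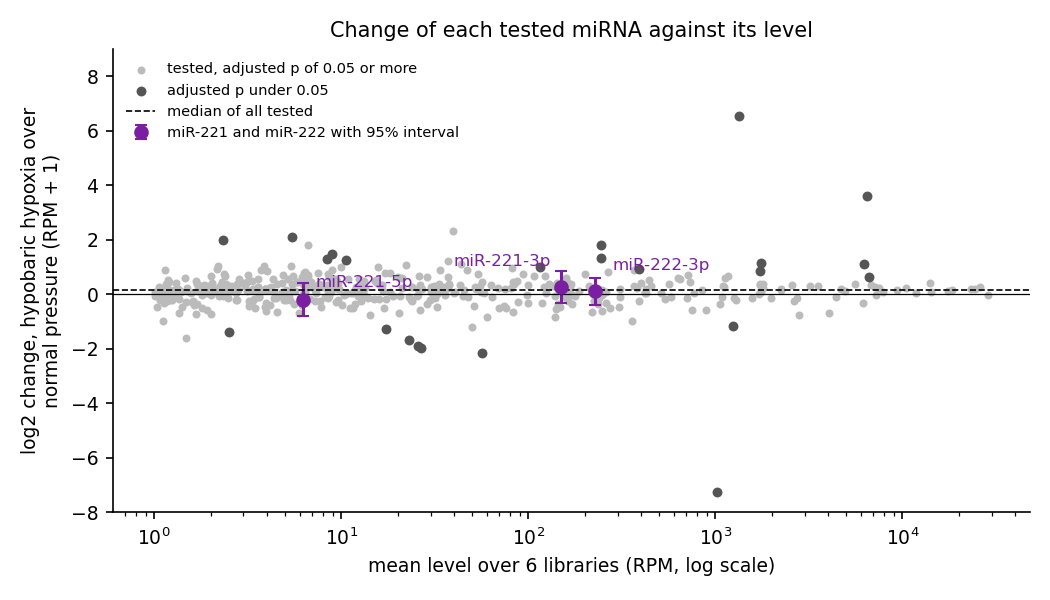
Log2 change under hypobaric hypoxia over normal pressure against mean level (RPM, log axis) for the 475 tested miRNAs, with adjusted p under 0.05 in dark grey and miR-221 and miR-222 in purple with 95% intervals. The 3 tested strands lie within the body of the plot, close to the dashed median of 0.15.

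Together the guide strands, which share 1 seed, made up 0.0838% to 0.132% of a library's miRNA reads. Their sum was 305, 303 and 464 RPM in normal-pressure libraries 1, 2 and 3. It was 416, 341 and 444 RPM in hypobaric libraries 1, 2 and 3, so that normal-pressure library 3 again lay above all hypobaric libraries. The difference of the mean log2 sums was 0.19, with an exact permutation p = 0.4, two-sided, where 3 against 3 cannot go below 0.1. It was 0.086 without normal-pressure library 1, 0.082 without 2 and 0.39 without 3, and 0.30 and 0.11 without hypobaric libraries 2 and 3. With median-of-ratios scaling it was 0.035 and with quantile scaling 0.12. As a share of miRNA reads the sum was 0.105% ± 0.0248 at normal pressure and 0.103% ± 0.0135 under hypobaric hypoxia (SD, n = 3 each). The log2 difference of the shares was -0.021, exact permutation p = 1, two-sided. It was 0.16 without normal-pressure library 3, 0.071 without hypobaric library 2 and at lowest -0.17 without normal-pressure library 1.

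The guide strands kept close to each other from library to library. miR-222-3p over miR-221-3p was 1.597, 1.86 and 1.47 in normal-pressure libraries 1, 2 and 3, and 1.44, 1.51 and 1.41 in hypobaric libraries 1, 2 and 3. The ratio was above 1 in 6 of 6 libraries, and the groups overlapped, because normal-pressure library 3 fell within the hypobaric range. The mean was 1.64 ± 0.197 at normal pressure and 1.45 ± 0.0508 under hypobaric hypoxia (SD, n = 3 each). For the log2 ratio of miR-221-3p over miR-222-3p the difference was 0.17, exact permutation p = 0.2, two-sided. Without normal-pressure library 2 the difference was 0.078.

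Normal-pressure library 2 held the ratio farthest from the rest. There miR-221-3p made up 35.0% of the reads of both guide strands (exact 95% binomial interval 33.9% to 36.1%). In the other 5 libraries it made up 38.5% to 41.5%, with intervals that begin at 37.3% or above. The reads carry no molecular identifiers, and the intervals cover counting error only.

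As a description, this pair was set beside other neighbours in the genome. Pairs were adjacent hairpins with a tested arm within 10000 bases on the same strand. miRNAs listed at several places in the RefSeq table, or with the same sequence as another, were left out first. Each hairpin was then taken by its more abundant remaining arm. Some pairs thus hold a minor arm, such as miR-24-2-5p at a mean of 29.9 RPM, where miR-24-3p had 2794 RPM. Among these 71 pairs the SD of the log2 ratio over the 6 libraries ran from 0.073 to 0.99, with a median of 0.31. The value for miR-221-3p and miR-222-3p was 0.14, the 6th smallest. Of the 13 pairs with both strands at 100 RPM or more, whose median was 0.22, it was the 3rd smallest.

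The arms of the miR-221 hairpin did not keep such a ratio. miR-221-3p over miR-221-5p was 19.5, 15.2 and 28.5 at normal pressure and 46.4, 25.01 and 21.4 under hypobaric hypoxia. Hypobaric library 1 stood highest, with the lowest level of the 5p arm (78 reads) and a 3p arm near the group mean. The mean ratio was 21.1 ± 6.81 and 30.9 ± 13.5 (SD, n = 3 each), with a log2 difference of 0.52 and exact permutation p = 0.4, two-sided. That difference was 0.18 without hypobaric library 1, 0.31 without normal-pressure library 2 and at most 0.76 with any other library left out. Of the reads of both arms, miR-221-5p made up 2.11% in hypobaric library 1 (exact 95% interval 1.67% to 2.63%) and 6.19% in normal-pressure library 2 (5.29% to 7.20%). These intervals do not overlap, so the arm share differed between these libraries beyond counting error. The 5p arm of miR-222 held 0.0348% to 0.247% of the reads of its hairpin's arms. The log2 difference of miR-222-3p over miR-222-5p was 0.20 (exact permutation p = 0.9, two-sided), from 2 to 11 reads of the lower arm. It ran from -0.49 without normal-pressure library 2 to 0.93 without normal-pressure library 3.

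**Figure D3:**
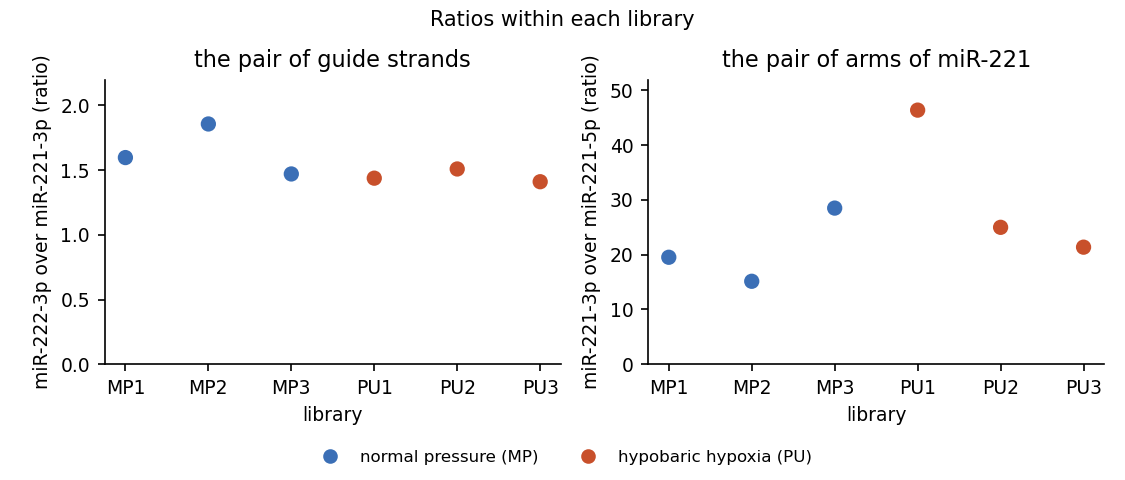
Ratios of RPM values within each library, for miR-222-3p over miR-221-3p (left) and miR-221-3p over miR-221-5p (right), on axes that start at 0, with 1 point per library coloured by group. The left ratio stays between 1.41 and 1.86, while the right one runs from 15.2 to 46.4 and is highest in hypobaric library 1.

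The miRNAs most alike in profile were found by the root mean square difference of log2(RPM + 1), each centred on its mean over the 6 libraries. Among 474 compared, miR-222-3p was the 3rd most alike to miR-221-3p (0.132 on the log2 scale). miR-125a-3p (0.0575) and miR-490-5p (0.0837) were nearer. miR-1981-3p, miR-342-5p and miR-674-3p followed, at 0.145 to 0.147. The normal-pressure levels of miR-125a-3p were 12.7, 11.4 and 19.9 RPM and its hypobaric levels 20.1, 15.7 and 19.7 RPM, with the same low pair of normal-pressure libraries.

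For miR-222-3p the nearest were miR-1981-3p (0.0733), a predicted miRNA with no annotated name (0.115), miR-195a-3p (0.125), miR-331-3p (0.130) and miR-490-5p (0.131), ahead of miR-221-3p in 6th place. The 5p arm had other company. Their difference from miR-221-5p was 0.456 for miR-221-3p and 0.368 for miR-222-3p, which took 88th place. The 5 nearest were miR-877-5p (0.114), miR-1981-5p (0.148), another predicted miRNA (0.167), miR-3074-1-3p and miR-1198-5p (both 0.213), and hypobaric library 1 was the lowest for each of them. None of the miRNAs named here for likeness passed in limma. Several lie near 1 RPM, where the added 1 flattens a profile.

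**Figure D4:**
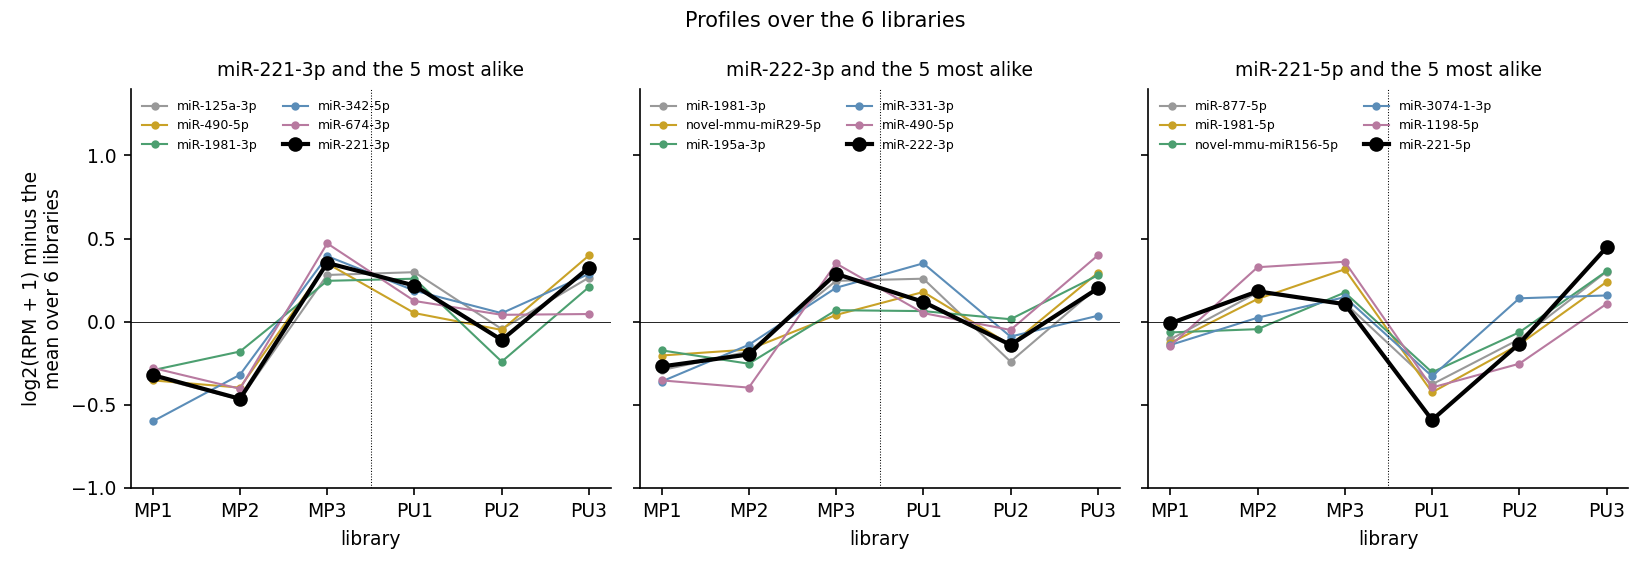
Log2(RPM + 1) minus its mean over the 6 libraries for each tested strand (black) and the 5 most alike miRNAs (coloured), with normal-pressure libraries left of the dotted line. Both 3p strands dip in normal-pressure libraries 1 and 2 and peak in library 3, while miR-221-5p is lowest in hypobaric library 1.

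Other miRNAs linked to the roles of this pair are described by their counts. Their lists were chosen with earlier results of these data known, so the counts and medians are no test of a list. Of 29 angiogenesis miRNAs tested, 4 rose, 1 fell and 24 did not pass, with a median log2 change of 0.24 against 0.15 for all tested. Of all 475 tested, 3.16% rose and 1.68% fell, or 15 and 8 miRNAs. The rises include miR-199a-3p, with a normal-pressure mean of 31.0 RPM and a hypobaric mean of 2632 RPM (log2 change 6.54). The falls include miR-199b-3p, with means of 2006 and 21.6 RPM in that order (-7.25). Whether a switch of reads between these names made both calls was not tested. The balance of rises and falls over all tested turned with the scaling. With median-of-ratios and with quantile scaling 12 rose and 14 fell, and in edgeR 11 and 14. The counts were 12 and 19 with totals that leave out the 10 most abundant miRNAs and with totals of miRNA reads. Of the angiogenesis miRNAs, miR-210-3p, induced by hypoxia-inducible factors, rose by 1.49 (limma adjusted p = 0.00679). So did miR-19b-3p (1.32, 0.0247), miR-16-5p (1.12, 0.0161) and miR-10b-5p (0.65, 0.0447). The change of miR-132-3p, which fell, was -1.37 (adjusted p = 0.00897). For miR-126a-3p of endothelial cells the log2 change was 0.16 (limma adjusted p = 0.536). In the same samples the red-cell markers moved as given above, and miR-16-5p is abundant in blood cells as well; the part of blood in these values was not tested.

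miR-210-3p passed in all 18 alternatives that gave an adjusted p. miR-132-3p lost its call without hypobaric library 2 (0.0502). The call of miR-16-5p ended without hypobaric library 1 (0.0797) or 2 (0.0696), and that of miR-19b-3p without either of normal-pressure libraries 1 (0.0605) and 2 (0.0833) or of hypobaric libraries 1 (0.111) and 2 (0.107). miR-10b-5p passed in 6 of 19 alternatives. Its call ended without normal-pressure library 1 (0.0863) or 2 (0.0558), without hypobaric library 1 (0.103), 2 (0.194) or 3 (0.0966), and with all 4 other scalings (0.0601 to 0.331). The call also ended without the filter (0.0985), without the variance trend (0.103), with a replicate block (0.0505) and in edgeR (0.0818).

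Of 13 tested miRNAs known for lowering cyclin-dependent kinase inhibitors, 0 passed in limma. Their median log2 change was 0.62, with 9 above 0, where 65.7% of all tested were above 0. The smallest p-values belonged to miR-20a-5p (0.90, adjusted p = 0.0837) and miR-17-5p (1.12, adjusted p = 0.0927), which target p21 and sit in 1 cluster. Both passed with DESeq2, without hypobaric library 3 and without the pair of libraries that stood apart. The list shares 4 members with the angiogenesis list. Of 4 tested miRNAs known for lowering KIT, 0 passed, and the median was -0.18. The smallest p-values were those of miR-34a-5p, which p53 induces (-0.67, adjusted p = 0.149), and miR-193b-3p (-0.44, adjusted p = 0.341). miR-34a-5p passed in 5 of 19 alternatives: with quantile scaling (0.0363), totals without the 10 most abundant miRNAs (0.0371), totals of miRNA reads (0.0459), DESeq2 (0.0248) and without the pair of libraries that stood apart (0.0251).

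Of the 9 granulosa and luteal miRNAs, 2 rose and 5 fell, where 3.16% and 1.68% of all 475 tested did. This list was chosen with earlier results of these data known, so its counts and median are descriptions and no test of the list. The median log2 change of the list was -1.17, against 0.15 for all tested. The calls are not all separate results. Among them are both arms of miR-202, of miR-212 and of miR-132, and the miR-212 and miR-132 hairpins lie within 10000 bases of each other. Both arms of miR-202, enriched in gonads, rose by 1.15 (5p) and 1.81 (3p) on the log2 scale, with limma adjusted p = 0.0114 and 0.0254. miR-212-3p, miR-212-5p, miR-132-5p, miR-132-3p and miR-21a-5p fell, with log2 changes from -2.15 to -1.17. Without hypobaric library 1 or 2 the calls of both arms of miR-202 and of miR-212-5p were lost (adjusted p from 0.0558 to 0.108), and those of miR-132-3p (0.0502) and miR-21a-5p (0.0696) without hypobaric library 2. Leaving out normal-pressure library 1 ended the calls of miR-202-3p (0.0779) and miR-21a-5p (0.0538), and leaving out normal-pressure library 2 those of miR-202-3p (0.0833) and miR-212-5p (0.0636). miR-202-3p also did not pass in edgeR (0.0505). Among the 47 tested miRNAs encoded only on the X chromosome, looked at after their values were seen, 1 rose (miR-322-3p, 0.95, limma adjusted p = 0.0352) and 0 fell. Of all 475 tested, 3.16% rose and 1.68% fell. The X-linked median was 0.24, against 0.15 for all tested, and miR-222-3p and miR-221-3p ranked 9th and 13th of the 47 by level.

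**Figure D5:**
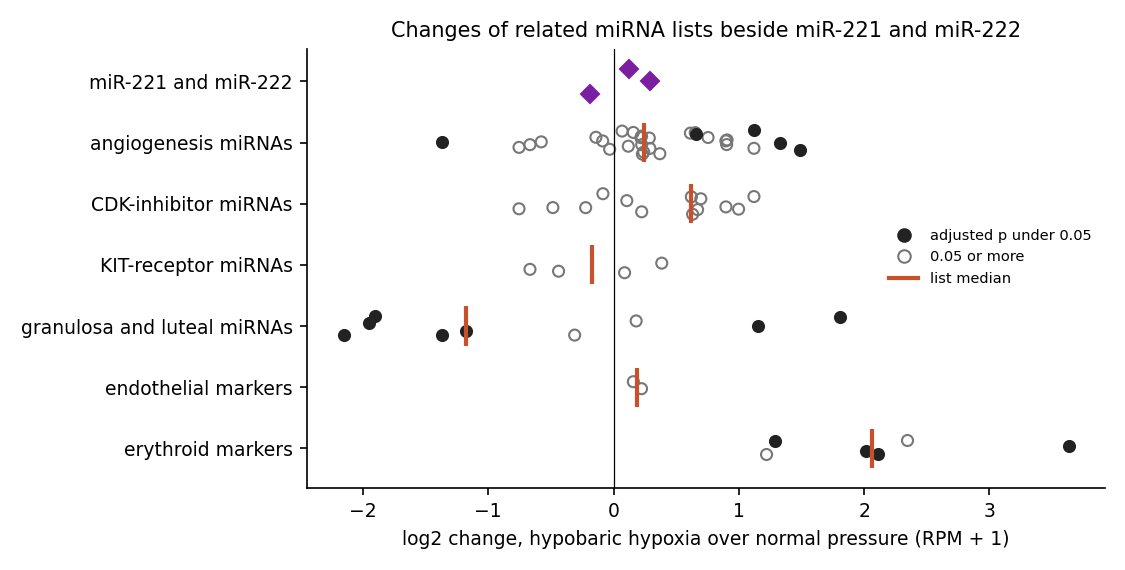
Log2 change of miR-221 and miR-222 (purple) and of the tested members of 6 lists, filled where the limma adjusted p was under 0.05, with the list median as a red line; the vertical scatter within a row has no meaning. The 3 purple points lie between -0.18 and 0.29, and the erythroid markers lie farthest to the right.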

How the data were processed

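Per the labels' protocols, column-extracted total RNA (1.3 µg) was made into gel-selected small RNA libraries and read as 50-base single reads on DNBSEQ. Bowtie2, DESeq2 and GRCm38.p6 are listed, without roles, in the submitters' processing notes. Not given in the sources used here is the assignment of reads that match several miRNAs. The deposited values, called TPM by the authors, are RPM: 100% in each library are whole multiples of 1 read (tolerance 0.0005 RPM), and whole reads were recovered from them.

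Groups and replicate numbers came from titles. The contrast was hypobaric hypoxia over normal pressure, by limma 3.58.1 (R 4.3.3) on log2(RPM + 1) with a variance trend, two-sided, adjusted by Benjamini-Hochberg over 475 miRNAs averaging 1 RPM or more, threshold 0.05. The script was tested on simulated data. Recovered reads entered the edgeR 4.0.16 and DESeq2 1.42.0 alternatives. Single values used exact permutation tests (scipy 1.17.1). Other alternatives changed pseudocount, filter, scaling, trend, replicate block and libraries. Within a group, the chi-square over degrees of freedom between libraries was at least 119, so none is a copy.

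Same-numbered libraries did not deviate together (correlations 0.346, -0.469 and -0.288), so numbers were not taken as pairs, though the sample descriptions give them the same length of exposure. The members and lists were chosen with earlier results of these data known. Named were all members, the 5 miRNAs most alike to each tested one, and of each role list those called and the 2 with the smallest p. Sequences are RefSeq's on GRCm38.p6; untranslated regions are from GENCODE M21 on GRCm38.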

Additional observations from a re-analysis of the deposited data

How the results depend on the processing

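In 56 fits of the 3 tested strands under alternatives, 0 passed; adjusted p lay between 0.247 and 0.958 for miR-221-3p, 0.466 and 0.988 for miR-222-3p, and 0.270 and 0.916 for miR-221-5p. miR-221-3p was positive in all 19 alternatives (0.037 to 0.54). miR-222-3p turned negative in 6: median-of-ratios scaling (-0.031), totals without the 10 most abundant miRNAs (-0.13), scaling to the total of miRNA reads (-0.087), edgeR (-0.066), DESeq2 (-0.057) and, chosen after seeing the data, without normal-pressure library 2 and hypobaric library 3 together (-0.019). With 1 library left out, log2 values ran from 0.13 to 0.54 for miR-221-3p, 0.014 to 0.29 for miR-222-3p and -0.45 to 0.065 for miR-221-5p. Likewise with 1 library left out, the log2 difference ran from -0.49 to 0.93 for miR-222-3p over miR-222-5p. It ran from 0.18 to 0.76 for miR-221-3p over miR-221-5p and from -0.17 to 0.16 for the guides' summed share of miRNA reads. For the summed RPM of the guides it ran from 0.082 to 0.39 in this way, and was 0.035 with median-of-ratios scaling. The count over all miRNAs was 23, from 10 to 34 with 1 library left out, 63 with DESeq2 and 49 without the pair of libraries that stood apart. The cause of these shifts was not tested. miR-221-5p has no value with a filter at 10 RPM.

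With a replicate block in the limma fit, the adjusted p was 0.515 for miR-221-3p, 0.784 for miR-222-3p and 0.714 for miR-221-5p, and 23 miRNAs were called. Same-numbered libraries share a number and, in the sample descriptions, a length of exposure. Depth limits miR-222-5p most, at 2 to 11 reads. For miR-221-5p at normal pressure the coefficient of variation between libraries (7.70%) was no larger than counting error gives (8.44%). The spread of both guide strands, and of miR-221-5p under hypobaric hypoxia (42.3%), lay above counting error.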
